A study of Mus musculus with 8 samples.

Results

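Most annexins attach to membranes when cellular calcium rises. The transcripts of 10 genes of this family, Anxa1 to Anxa9 and Anxa11, were examined in the aorta of ApoE-/- and WT mice. The members were chosen by gene symbol and made up 10 of the 21859 genes in the count tables. All 10 passed the filter on low counts. Anxa10 was also listed, with 1 count in ApoE-/- replicate 3 and 0 counts in the other libraries, and Anxa13 was not analysed here.

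The 4 ApoE-/- mice lacked apolipoprotein E, the ligand that clears remnant lipoproteins from blood, and develop atherosclerotic plaques. The 4 WT mice were C57BL/6 animals. All mice were males of 40 weeks fed a normal chow diet, and each library was made from the total RNA of 1 whole aorta after depletion of ribosomal RNA. The comparison asked which transcripts differ between an atherosclerosis-prone and a healthy aorta. Whole aorta holds several cell types, so more cells of a type and more RNA per cell cannot be told apart in any of the values given here.

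Most annexins have a conserved core that docks on acidic phospholipids when calcium is present, and an N-terminal tail that differs between members and binds other proteins. Through these contacts annexins take part in vesicle traffic, membrane repair, plasmin generation at the cell surface and the resolution of inflammation. In endothelium, Anxa8 is known for keeping the tetraspanin Cd63 and the leukocyte adhesion receptor P-selectin at the cell surface. Anxa9 is an atypical member that lacks the usual calcium-binding residues.

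Read pairs counted on genes numbered 23240995 to 23940156 per ApoE-/- library and 18375898 to 21664598 per WT library. They made up 32.3 to 35.6% of all pairs in ApoE-/- and 27.9 to 30.2% in WT, so both measures lay apart between genotypes. Their part in the values below was not tested. CPM are read pairs counted on a gene, scaled to the size of the library. The Apoe transcript stood at 14.7 to 36.3 CPM in the ApoE-/- libraries against 536 to 857 CPM in the WT libraries. ApoE-/- replicate 1 stood apart from the other 3 ApoE-/- libraries. Its summed level of 8 contractile smooth muscle markers was 4803 CPM, against 12105 to 19605 CPM in ApoE-/- replicates 2 to 4 and 10671 to 20054 CPM in WT. Its summed level of 5 nerve markers was 2676 CPM, against 30.9 to 205 CPM in the other ApoE-/- libraries and 166 to 594 CPM in WT. Main results are therefore given with and without this library, and its part in them was not tested beyond that.

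**Figure D1:**
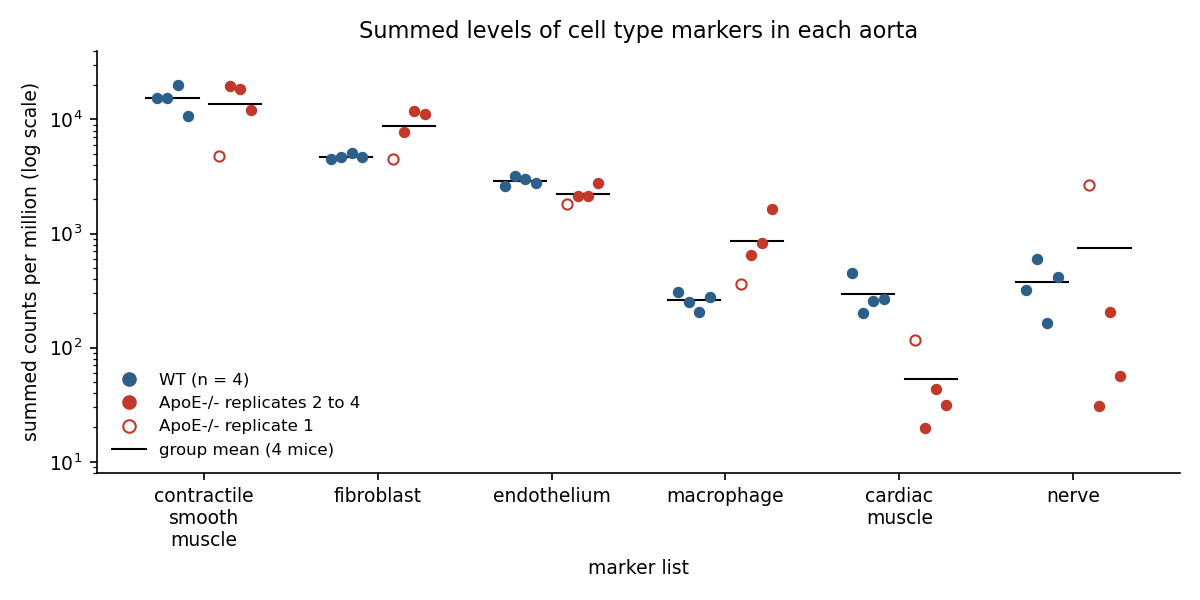
Summed CPM (log scale) of 6 lists of cell type markers in each aorta. Blue points are WT mice, filled red points ApoE-/- replicates 2 to 4, the open point ApoE-/- replicate 1, and lines the means of 4 mice. The open point lies lowest of all mice for contractile smooth muscle (4803 CPM) and highest for nerve (2676 CPM), while all 4 ApoE-/- mice lie above WT for macrophage markers.

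In WT aorta, the family was led by Anxa5, which binds phosphatidylserine exposed on dying cells, and Anxa6, which carries an extended core. Levels between genes were compared as transcript shares (TPM), which divide counts by the exon length of each gene. In WT, Anxa5 stood at 552 ± 23.3 TPM and Anxa6 at 475 ± 36.4 TPM (SD, n = 4). Anxa1, an anti-inflammatory ligand of formyl peptide receptors, followed with 268 ± 45.7 TPM, and Anxa2, a co-receptor for plasminogen and its activator, with 227 ± 26.4 TPM. Anxa3 reached 159 ± 21.5 TPM and Anxa7, a membrane fusion protein also called synexin, 105 ± 9.67 TPM. Anxa11, which tethers RNA granules to lysosomes, reached 57.6 ± 13.5 TPM and Anxa4 54.5 ± 4.48 TPM. Anxa8 and Anxa9 were far below the rest, at 7.85 ± 1.65 TPM and 7.52 ± 0.557 TPM.

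In this order, the ranges of Anxa5 and Anxa6, of Anxa1 and Anxa2, of Anxa11 and Anxa4, and of Anxa8 and Anxa9 overlapped between neighbours in WT. Within each WT mouse, Anxa5 was nevertheless above Anxa6 and Anxa1 above Anxa2 in 4 of 4 animals, whereas Anxa8 was above Anxa9 in 2 of 4. In ApoE-/- aorta the first 6 places were unchanged. Anxa8 stood at 65.9 ± 37.3 TPM there, in the 8th place, above Anxa11 at 57.1 ± 26.5 TPM in 3 of 4 mice, and its range overlapped those of both neighbours. Anxa9 stayed last at 8.40 ± 1.05 TPM. The order depends on the length used: with the coding length in place of the exon length, Anxa2 held the second largest share in WT, and with raw counts Anxa6 held the largest, 24.4%. The place of Anxa8 above Anxa11 in ApoE-/- turned as well, with mean shares of 2.05% for Anxa8 and 2.58% for Anxa11 by coding length and 1.72% and 3.32% by raw counts.

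**Figure D2:**
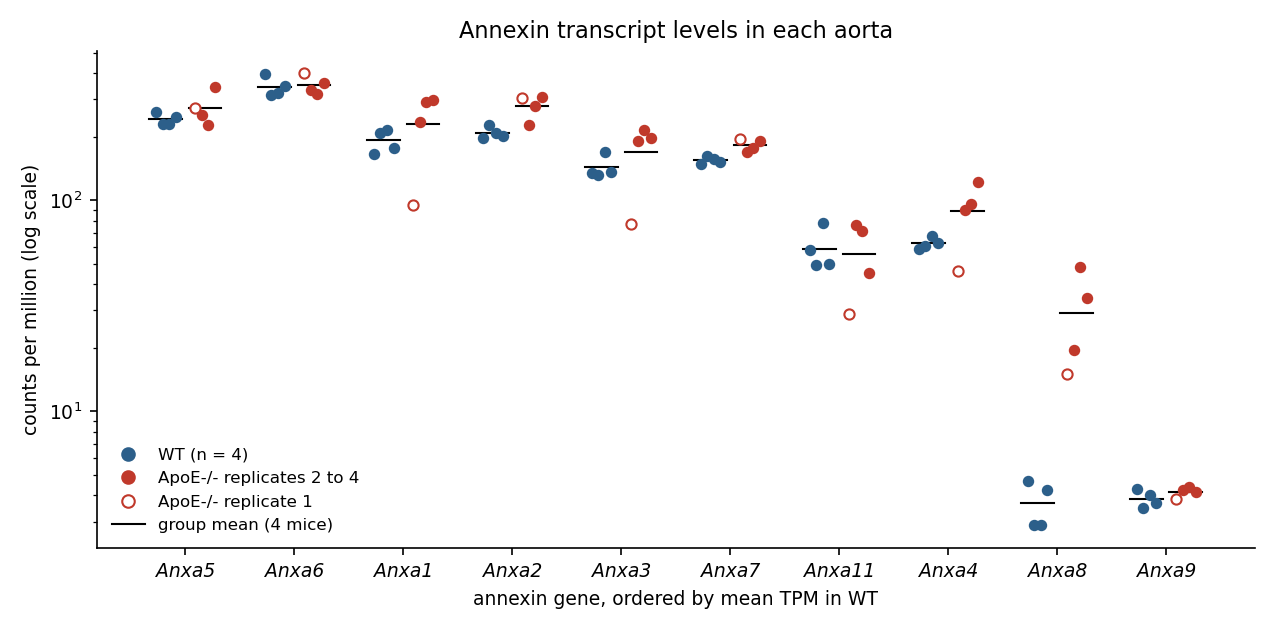
CPM (log scale) of the 10 annexins in each aorta, ordered by mean TPM in WT, with WT in blue, ApoE-/- in red and ApoE-/- replicate 1 as an open point. Lines are means of 4 mice. Anxa8 shows the widest gap between genotypes, 15.1 to 48.4 CPM against 2.88 to 4.68 CPM, and the open point lies lowest for Anxa1, Anxa3, Anxa4 and Anxa11.

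Anxa8 was the member with a difference past the threshold between genotypes. The raw counts were 371, 446, 1110 and 792 in the ApoE-/- mice (replicates 1 to 4) against 102, 62, 52 and 88 in the WT mice (replicates 1 to 4). These were 15.1, 19.5, 48.4 and 34.4 CPM in ApoE-/- and 4.68, 2.90, 2.88 and 4.21 CPM in WT. The lowest ApoE-/- value, that of replicate 1, lay above the highest WT value. The transcript was 7.97-fold higher in ApoE-/- aorta, with a log2 fold change of 3.00 ± 0.40 (SE) and an adjusted p of 0.038 by edgeR's quasi-likelihood test.

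Of all genes tested, 0.464% passed this threshold in either direction and 0.371% were higher in ApoE-/-, which is 56 of 15077. Without ApoE-/- replicate 1, the log2 fold change of Anxa8 was 3.21 ± 0.33 and its adjusted p 0.0062 by edgeR. When any other single library was left out, its log2 fold change stayed between 2.64 and 3.15, and its edgeR adjusted p lay between 0.0508 and 0.161, past the threshold in none of these 7 fits. DESeq2 called Anxa8 with all libraries (adjusted p = 1.2e-10) and without each of the 8 mice, whereas limma-voom, which called 0.192% of all genes, gave an adjusted p of 0.0737.

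The promoters in RefSeq (GRCm38.p6), from 250 bases before to 50 bases after the start of each transcript, are shown for the 3 annexins whose genotypes did not overlap, Anxa8, Anxa2 and Anxa7, the latter by both of its 2 listed promoters. Capitals mark matches, searched on both strands, to the core promoter motif TATAAA, the Sp-family motif GGGCGG, the AP-1 motif TGANTCA and the E box motif CACGTG. No match overlapped another.
Anxa8, chr14:34085729-34086028, plus strand: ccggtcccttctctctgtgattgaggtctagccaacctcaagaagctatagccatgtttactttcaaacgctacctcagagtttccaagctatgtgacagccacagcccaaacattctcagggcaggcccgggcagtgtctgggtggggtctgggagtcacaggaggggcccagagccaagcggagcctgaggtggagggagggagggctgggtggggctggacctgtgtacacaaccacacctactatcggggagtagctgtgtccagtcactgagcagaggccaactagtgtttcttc
Anxa2, chr9:69453433-69453732, plus strand: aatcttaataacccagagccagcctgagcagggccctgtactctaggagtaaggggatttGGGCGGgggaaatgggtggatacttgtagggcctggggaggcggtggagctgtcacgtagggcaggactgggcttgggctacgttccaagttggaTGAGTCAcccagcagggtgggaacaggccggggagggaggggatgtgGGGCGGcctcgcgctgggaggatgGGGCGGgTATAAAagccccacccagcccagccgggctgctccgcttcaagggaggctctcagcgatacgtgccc
Anxa7 (first), chr14:20480084-20480383, minus strand: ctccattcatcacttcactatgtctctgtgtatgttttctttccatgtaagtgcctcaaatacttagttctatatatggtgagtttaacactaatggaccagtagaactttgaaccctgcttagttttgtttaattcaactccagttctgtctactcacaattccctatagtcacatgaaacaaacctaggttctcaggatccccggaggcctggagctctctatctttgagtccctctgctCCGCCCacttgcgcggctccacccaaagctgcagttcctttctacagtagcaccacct
Anxa7 (second), chr14:20479892-20480191, minus strand: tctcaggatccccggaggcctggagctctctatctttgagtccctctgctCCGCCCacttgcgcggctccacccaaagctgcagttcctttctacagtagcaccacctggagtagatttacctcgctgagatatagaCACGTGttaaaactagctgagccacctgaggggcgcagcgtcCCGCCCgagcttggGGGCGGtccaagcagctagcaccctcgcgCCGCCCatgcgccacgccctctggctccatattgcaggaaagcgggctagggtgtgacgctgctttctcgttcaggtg

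The Anxa8 promoter held none of the 4 motifs, and neither did that of Anxa5, both of Anxa9 or the second of Anxa4. That of Anxa2 held 1 core promoter motif, 3 Sp-family motifs and 1 AP-1 motif, the latter starting 95 bases before the transcript start. The first of Anxa7 held 1 Sp-family motif and none of the other motifs, and the second held 4 Sp-family motifs and 1 E box motif. These Anxa7 stretches overlap, and the Sp-family motif of the first is the same site as 1 of the 4 in the second. Among the 32851 promoters of the table, 13.6% held the core promoter motif, 35.7% the Sp-family motif, 7.81% the AP-1 motif and 7.15% the E box motif. The table matched 8 of the 10 annexins, all but Anxa3 and Anxa6. These letters are a description of the sequence and do not show that a factor binds there.

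Anxa8 lies on chromosome 14 (GRCm38, 34085981 to 34100571, plus strand), the chromosome that also holds Anxa11, 8.20 Mb away, and Anxa7. Of 13 genes in the tables within 250 kb of Anxa8, 7 were tested. With all libraries edgeR called 0 of them, against 0.464% of all genes tested. DESeq2 also called 0, against 4.81%, and 1, Syt15, had an unadjusted p below 0.05 by edgeR, against 11.4%. Syt15, a member of the synaptotagmin family of membrane proteins, stood at 15.2 CPM in ApoE-/- replicate 1 and 22.6 to 39.3 CPM in the other ApoE-/- mice, against 9.86 to 18.9 CPM in WT, so the genotypes overlapped through that library, with a log2 fold change of 0.84 and an adjusted p of 0.339 by edgeR. Without ApoE-/- replicate 1, edgeR called 1 of the 7, Gdf10, a growth factor of the TGF-beta superfamily (adjusted p = 0.0439), and DESeq2 called 2, Gdf10 (adjusted p = 8.1e-04) and Syt15 (adjusted p = 0.0045). In these fits edgeR called 3.91% and DESeq2 10.3% of all genes tested. Among the genes with too few counts to test, Antxrl, 9576 bases from Anxa8, had 7, 4, 16 and 5 raw counts in ApoE-/- replicates 1 to 4. It had 0, 0, 0 and 2 in WT replicates 1 to 4, without overlap, and 5.41% of the genes tested were likewise higher without overlap. The gene A630023A22Rik, annotated on the opposite strand across Anxa8, had 1 to 9 counts in ApoE-/- and 0 or 1 in WT.

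Sharing of reads between paralogues was small by sequence. No 50-base stretch of the Anxa8 transcript recurred in the transcript of another gene, and the same held for the other members except Anxa4 and Anxa11. Anxa4 shared 1.46% of its stretches with 1 other gene, and Anxa11 shared 28.9% with 3 other genes, among them its antisense gene Anxa11os, so its counts are less certain. Neither shared any with another annexin. The closest pair of coding sequences, Anxa4 and Anxa5, was 65.5% identical over a global alignment, and the closest to Anxa8 was Anxa5 with 64.4%.

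Anxa2 and Anxa7 differed less than Anxa8. Anxa2 stood at 306, 228, 279 and 308 CPM in ApoE-/- replicates 1 to 4, against 198, 226, 208 and 201 CPM in WT replicates 1 to 4. Its lowest ApoE-/- value, of replicate 2, was just above its highest WT value. Its log2 fold change was 0.43 ± 0.13 (SE), with an edgeR adjusted p of 0.207 and an unadjusted p of 0.010, and it was past the threshold by DESeq2 (adjusted p = 0.0191).

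Anxa7 stood at 194, 168, 177 and 189.7 CPM in ApoE-/-, against 149, 162, 156 and 152 CPM in WT. The groups did not overlap, and the member varied little between mice, with a coefficient of variation of 6.54% in ApoE-/- and 3.84% in WT. Its log2 fold change was 0.24 ± 0.095 (SE), with an adjusted p of 0.377 by edgeR and 0.0489 by DESeq2. Without ApoE-/- replicate 1, neither tool called Anxa2 or Anxa7: the edgeR adjusted p was 0.146 for Anxa2 and 0.279 for Anxa7, and the DESeq2 values were 0.0553 and 0.158. DESeq2 called 4.81% of all genes tested with 8 libraries.

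The values of Anxa1, Anxa3 and Anxa4 depended on ApoE-/- replicate 1. Anxa1 stood at 94.9 CPM in that library and at 234, 290.2 and 298 CPM in ApoE-/- replicates 2 to 4, against 165, 209, 215 and 177 CPM in WT. The first value was the lowest of all 8 mice and the other 3 were the highest. By edgeR, the log2 fold change with its SE came to 0.26 ± 0.33 with all libraries (adjusted p = 0.841) and to 0.52 ± 0.14 without that mouse (adjusted p = 0.0894).

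Anxa3 followed the same arrangement, with 76.7 CPM in ApoE-/- replicate 1, 190.0 to 214 CPM in the other ApoE-/- mice and 132 to 169.6 CPM in WT. The log2 fold change came to 0.25 ± 0.29 (adjusted p = 0.834) with all libraries and 0.49 ± 0.12 (adjusted p = 0.0685) without that mouse, both by edgeR. Anxa4 stood at 46.4 CPM in ApoE-/- replicate 1 and at 89.6, 95.6 and 122 CPM in the other ApoE-/- mice, against 58.6 to 67.9 CPM in WT. Here the log2 fold change came to 0.50 ± 0.26 (edgeR adjusted p = 0.545), and without that mouse it was 0.71 ± 0.12 and past the threshold (adjusted p = 0.0206). Without that library, DESeq2 called Anxa1, Anxa3, Anxa4 and Anxa8. These 2 tools then called 3.91% and 10.3% of all 15147 genes tested.

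Marker sums of ApoE-/- replicate 1, where Anxa1, Anxa3, Anxa4 and Anxa11 were lowest of all mice, also differed from those of the other ApoE-/- libraries. The summed level of 8 fibroblast markers was 4492 CPM there, against 7779 to 11932 CPM in ApoE-/- replicates 2 to 4. It was 4509 to 5116 CPM in WT, close to that library. The endothelial sum of that library, 1829 CPM, was the lowest of all mice (2119 to 2751 CPM in the other ApoE-/- mice and 2637 to 3167 CPM in WT). The contractile smooth muscle and nerve sums stood apart in that library as given above, the first low and the second high. Their part in the annexin values was not tested.

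The remaining 4 members had overlapping genotypes both with and without ApoE-/- replicate 1. Anxa5 stood at 228 to 345 CPM in ApoE-/- and 229 to 262 CPM in WT, with a log2 fold change of 0.18 ± 0.15 (edgeR adjusted p = 0.774). Anxa6, the most counted member, stood at 318 to 399 CPM and 314 to 394 CPM, with a log2 fold change of 0.03 ± 0.13 (adjusted p = 0.965) whose sign turned without ApoE-/- replicate 1 (-0.04) and with upper-quartile factors (-0.0095). Anxa9 stood at 3.86 to 4.36 CPM and 3.46 to 4.27 CPM, with a log2 fold change of 0.11 ± 0.15 (adjusted p = 0.862). Anxa11 stood at 28.7 to 76.4 CPM and 49.5 to 78.3 CPM, with a log2 fold change of -0.09 ± 0.31 (adjusted p = 0.957) that became 0.13 without that mouse. Taking 2 standard errors on each side, these differences lay between -0.12 and 0.48 for Anxa5, -0.24 and 0.30 for Anxa6, -0.20 and 0.41 for Anxa9 and -0.71 and 0.54 for Anxa11, so a small difference in either direction is within the error.

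**Figure D3:**
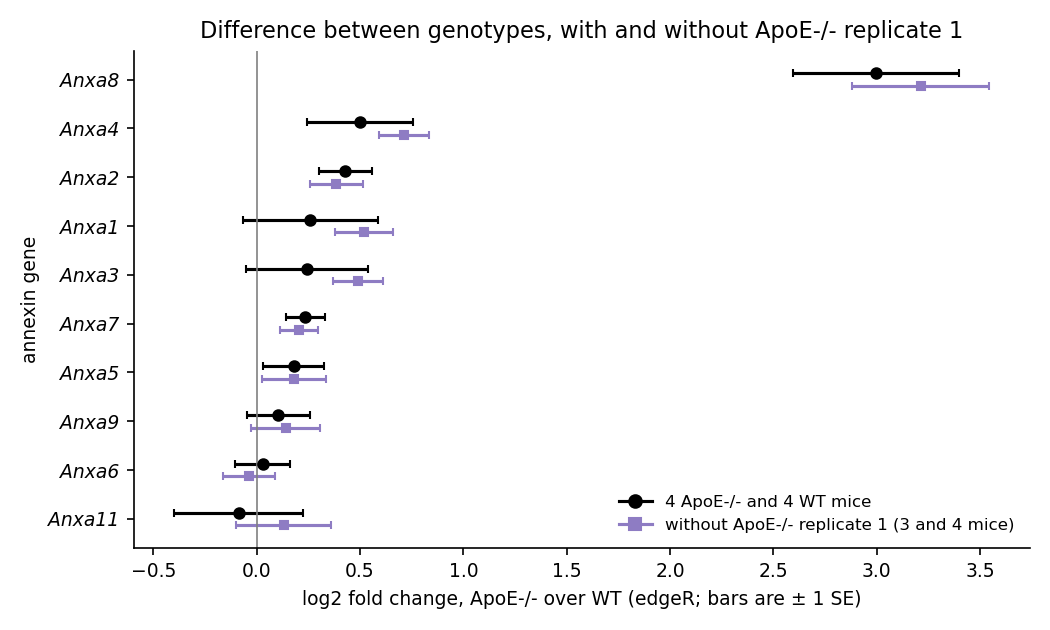
Log2 fold change of each annexin, ApoE-/- over WT, by edgeR with 4 mice per genotype (black circles) and without ApoE-/- replicate 1 (purple squares). Bars are 1 standard error on each side. Anxa8 lies at 3.00 and the other 9 members between -0.09 and 0.50, and Anxa1, Anxa3 and Anxa4 move up with narrower bars when the library is left out.

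Counted over the family, 1 of 10 annexins was higher by edgeR and 0 were lower, while DESeq2 called 3 higher (Anxa2, Anxa7 and Anxa8), against 3.12% of all genes tested. At an unadjusted edgeR p below 0.05 stood 3 annexins, against 11.4% of all genes tested. The genotypes did not overlap, with every ApoE-/- mouse above every WT mouse, for 3 of 10 annexins, against 5.41% of all genes tested. Without ApoE-/- replicate 1 this held for 6 of 10, with Anxa1, Anxa3 and Anxa4 added, against 9.82% of all genes tested. The median log2 fold change of the 10 was 0.24, beside 0.05 for all genes tested, and it was 0.30, beside 0.0046, without that library. Of the 10, 9 had a positive log2 fold change, as had 58.0% of all genes tested.

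Of the 10 members, 8 varied more between ApoE-/- mice than between WT mice. The coefficient of variation of CPM ranged from 5.18% (Anxa9) to 51.6% (Anxa8) in ApoE-/-, with a median of 26.9% over the 10 members, and from 3.84% (Anxa7) to 25.0% (Anxa8) in WT, with a median of 9.83%. The exceptions were Anxa6, whose value in ApoE-/- was just below the 10.5% in WT, and Anxa9, with 5.18% and 9.12%. Part of the spread came from ApoE-/- replicate 1: over the other 3 ApoE-/- mice the median was 13.8%, and 7 members were above WT. Without it the value of Anxa1 was 12.8%, beside 12.7% in WT, and that of Anxa3 was 6.29%, below the 12.6% in WT. The difference in spread between genotypes was not tested.

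Within the family, the share of Anxa8 was higher in ApoE-/- aorta. Each share is the count per kilobase of exon divided by its sum over the 10 annexins in the same library, so it does not depend on sequencing depth. Anxa8 made up 1.65, 1.97, 4.55 and 2.84% of the summed level in ApoE-/- replicates 1 to 4, against 0.514, 0.336, 0.320 and 0.481% in WT replicates 1 to 4. Every ApoE-/- share was more than 3 times the highest WT share. The mean was 2.75% ± 1.30 against 0.413% ± 0.0989 (SD, n = 4), a difference past the spread between mice by an exact two-sided permutation test (p = 0.0286, the smallest that 4 against 4 mice can give), unadjusted over 10 shares. With any single WT mouse left out, the difference of 2.34 percentage points became 2.31 to 2.37 and the genotypes still did not overlap, while the exact permutation p was 0.0571.

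No other share passed that test, with exact permutation p-values from 0.171 to 1 for the other 9 members (n = 4 per genotype). Anxa5 made up 27.8% ± 3.98 of the summed level in ApoE-/- and 28.9% ± 1.62 in WT, and Anxa6 21.9% ± 4.27 and 24.9% ± 2.24. In ApoE-/- replicate 1, Anxa5, Anxa6 and Anxa2 together took 76.7%, against 55.1 to 61.9% in the other ApoE-/- mice and 61.6 to 69.1% in WT. Anxa1, Anxa3, Anxa4 and Anxa11 together took 14.6% there, against 30.1 to 34.7% and 24.8 to 32.2%. Without that library, the Anxa4 share lay above that of every WT mouse (3.64 to 4.07% against at most 3.06%) and the Anxa6 share below (18.9 to 21.5% against 22.9 to 27.8%).

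**Figure D4:**
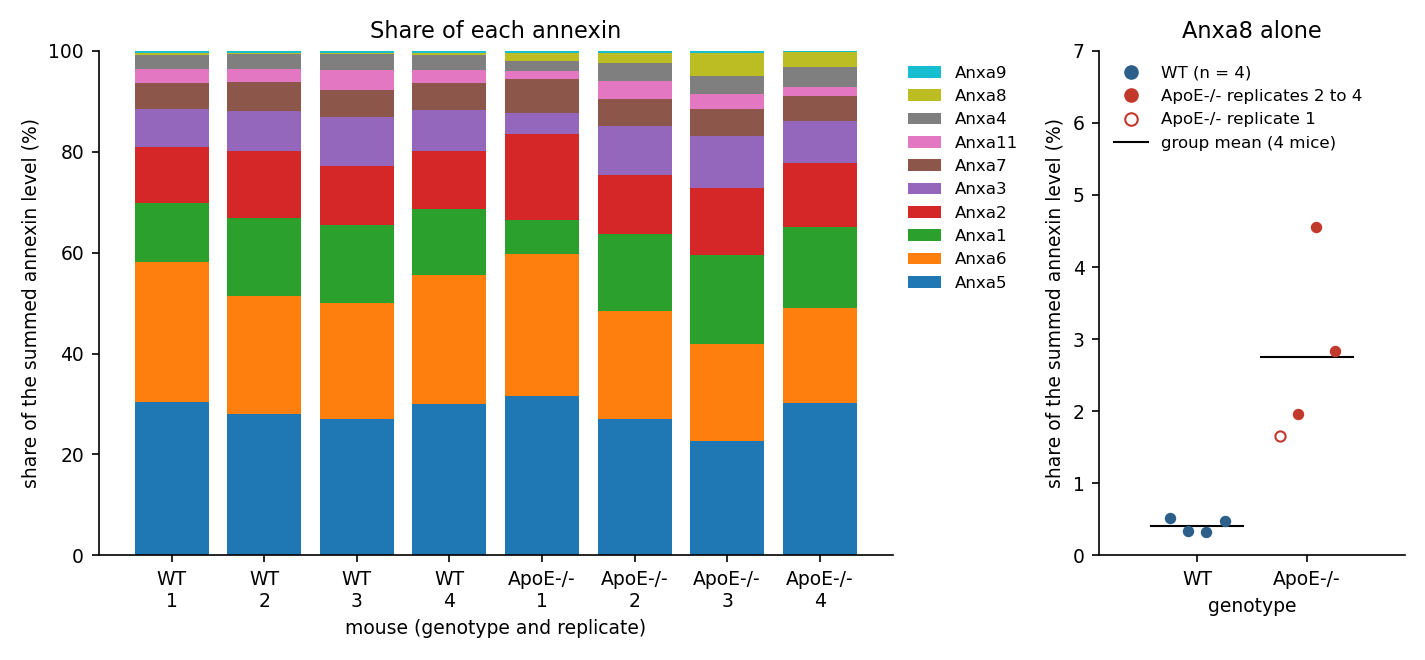
Left, share (%) of each annexin in the summed annexin level, as counts per kilobase of exon, in each of the 8 mice. Right, the Anxa8 share alone, with WT in blue, ApoE-/- in red, ApoE-/- replicate 1 open and lines for means of 4 mice. Anxa8 takes 1.65 to 4.55% in ApoE-/- and 0.320 to 0.514% in WT, and ApoE-/- replicate 1 has the largest combined share of Anxa5, Anxa6 and Anxa2 (76.7%).

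Measured against its own paralogues, Anxa8 also differed. This measure and the share use the same Anxa8 counts as the fold change, so they are not separate evidence. On the scale of log2(CPM + 0.5) minus the mean of the other 9 annexins in the same library, Anxa8 stood at -2.48, -2.57, -1.36 and -1.90 in ApoE-/- replicates 1 to 4 and at -4.29, -4.86, -5.01 and -4.38 in WT replicates 1 to 4. All ApoE-/- values lay above all WT values. The difference was 2.56, or 5.88-fold (exact two-sided permutation test, p = 0.0286, n = 4 per genotype, the smallest that 4 against 4 mice can give, unadjusted over 10 members).

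The same measure for the other 9 members differed by between -0.65 (Anxa11) and 0.00 (Anxa2 and Anxa4), with overlapping genotypes. Each of these is set against a mean that includes Anxa8, and the sign of the differences turned for Anxa1, Anxa3, Anxa4, Anxa5, Anxa7 and Anxa9 when the median of the others was used, and Anxa4 then differed by 0.35 (exact permutation p = 0.0286, n = 4 per genotype). Without ApoE-/- replicate 1, Anxa6, Anxa7 and Anxa9 lay below WT on the mean-based scale with no overlap. The annexin level summed over the 10 members was 2015 to 2584 TPM in ApoE-/- and 1796 to 2003 TPM in WT, with ApoE-/- replicate 1 closest to WT. As CPM, which is not divided by length, the sums overlapped, at 1437 to 1899 and 1384 to 1453.

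The genes whose pattern over the 8 mice was most like that of Anxa8 were Crabp2, F5, Mpeg1, Slamf7 and Tlr13, and not other annexins. Likeness was the root mean square difference of log2(CPM + 0.5), each gene centred on its mean over the 8 libraries, so both the genotype difference and the spread within genotypes enter it. It was 0.24 for Crabp2, a retinoic acid-binding protein, 0.27 for F5, coagulation factor V, 0.28 for Mpeg1, a pore-forming protein of macrophages, 0.29 for Slamf7, a leukocyte surface receptor, and 0.29 for Tlr13, a receptor for bacterial RNA. F5 stood at 12.2, 14.7, 35.3 and 29.9 CPM in ApoE-/- replicates 1 to 4 and at 3.42 to 4.55 CPM in WT. Crabp2 stood at 1.34, 2.36, 6.53 and 3.34 CPM in ApoE-/- replicates 1 to 4 and at 0.055 to 0.144 CPM in WT. Its WT values lay below the added 0.5, which narrows its genotype difference on this scale, and by edgeR it was 26.8-fold higher in ApoE-/- beside 7.97-fold for Anxa8. Replicate 3 held the highest value for F5, Crabp2 and Anxa8, and replicate 4 the highest for Mpeg1, Slamf7 and Tlr13. Among annexins, Anxa4 came closest with 1.21, at place 821 of the genes tested, and Anxa11 lay farthest with 1.54, beside a median of 1.48 over all genes tested.

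**Figure D5:**
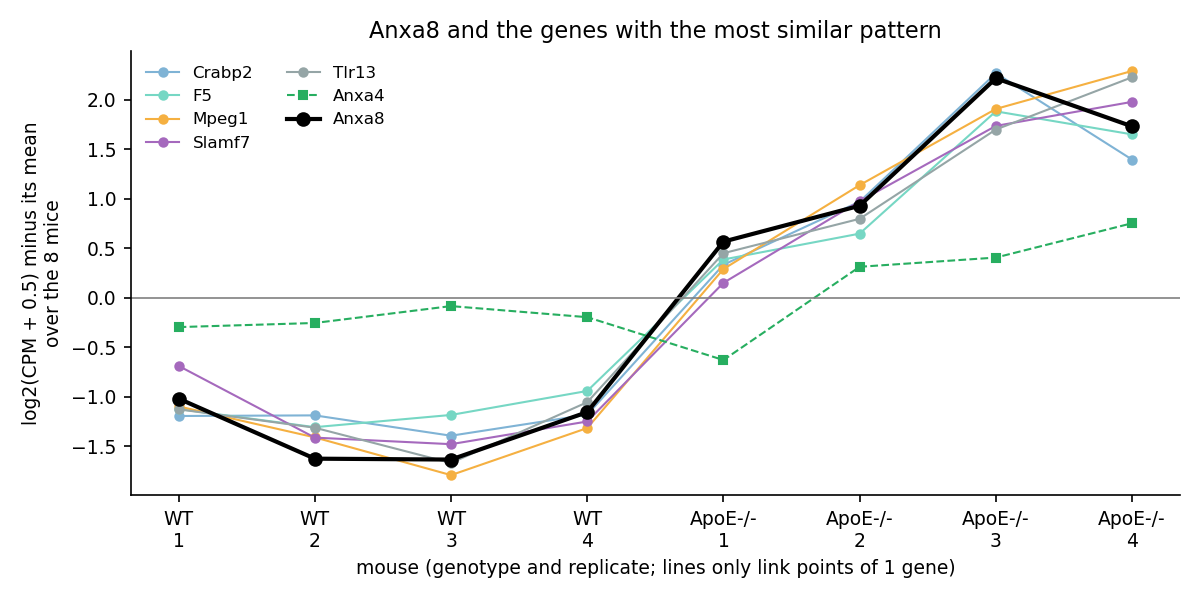
Log2(CPM + 0.5) minus its mean over the 8 mice, for Anxa8 (black), the 5 genes with the most similar pattern and Anxa4 (dashed), the annexin closest to Anxa8. Lines only link the points of 1 gene. All 6 leading genes lie below 0 in every WT mouse and above 0 in every ApoE-/- mouse, whereas Anxa4 lies below 0 in ApoE-/- replicate 1.

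The same mice differed in markers of other cells. The sum of 8 macrophage markers was 358, 652, 825 and 1637 CPM in ApoE-/- replicates 1 to 4, against 205 to 308 CPM in WT, and all 8 genes were higher in every ApoE-/- mouse than in any WT mouse, against 5.41% of all genes tested. Among ApoE-/- mice, replicate 1 was lowest and replicate 2 next lowest for both the macrophage sum and Anxa8. The highest was replicate 4 for the macrophage sum and replicate 3 for Anxa8. Of 10 endothelial markers, 4 were lower in every ApoE-/- mouse than in any WT mouse, against 3.3% of all genes tested, and the other 6 overlapped. The endothelial sums overlapped too, at 1829 to 2751 CPM against 2637 to 3167 CPM. The 6 stratified epithelium markers, a tissue known to express Anxa8, summed to 4.42 to 6.55 CPM in ApoE-/- and 2.90 to 5.46 CPM in WT, with Krt5, Krt15 and Dsg3 at 3 counts or fewer in every library. Of the 6 neutrophil markers, Ly6g and Mpo were at 3 counts or fewer in every library, and the sum was 1.92 to 7.25 CPM against 0.670 to 1.16 CPM. The part of macrophages and endothelium in the Anxa8 difference was not tested.

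The 6 cardiac muscle markers were each lower in every ApoE-/- mouse than in any WT mouse, against 3.3% of all genes tested, with sums of 19.9 to 116 CPM against 201 to 452 CPM. Sums of B cell markers were 6.29 to 16.9 CPM against 3.99 to 6.27 CPM. Those of T cells (3.02 to 6.21 against 2.05 to 3.70 CPM), adipocytes (1959 to 7131 against 4568 to 9256 CPM), mesothelium (2.66 to 10.1 against 4.04 to 40.5 CPM) and skeletal muscle (9.23 to 22.3 against 13.3 to 24.7 CPM) overlapped between genotypes. Their part in the annexin values was not tested.

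Partners of the annexins were followed in 33 listed genes, of which 32 were in the tables and 24 were tested. With all libraries, edgeR called 0 of the 24 (against 0.464% of all genes tested), with 6 at an unadjusted p below 0.05 (against 11.4%). Limma-voom called 0 (against 0.192%) and DESeq2 called 4 (against 4.81%). Their median log2 fold change was 0.13 beside 0.05 for all genes tested. Without ApoE-/- replicate 1, edgeR called 6 (5 higher and 1 lower, against 3.91% of all genes tested) and DESeq2 8 (against 10.3%), and the median was 0.23 beside 0.0046.

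Among the proteins carried by endothelial granules, Selp, which encodes P-selectin, differed most. It stood at 30.8, 39.4, 65.6 and 51.3 CPM in ApoE-/- replicates 1 to 4, against 16.8, 24.4, 19.6 and 15.1 CPM in WT replicates 1 to 4. Every ApoE-/- value was above every WT value. The log2 fold change was 1.30 ± 0.25 (SE), with an adjusted p of 0.0684 by edgeR, 0.0136 without ApoE-/- replicate 1, and 3.3e-04 by DESeq2 with all libraries.

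Unc13d, a granule-docking factor, was likewise higher without overlap (5.31 to 7.47 CPM against 2.54 to 4.54 CPM), with a log2 fold change of 0.79 ± 0.22 and an adjusted p of 0.169 by edgeR and 0.0237 by DESeq2. Cd63 stood at 17.1 CPM in ApoE-/- replicate 1 and 30.1 to 39.1 CPM in the other ApoE-/- mice, against 20.2 to 23.7 CPM in WT. The difference on the log2 scale was 0.48 ± 0.23 (edgeR adjusted p = 0.516), and 0.67 (adjusted p = 0.026) without that mouse. Vwf, von Willebrand factor of the same granules, had a log2 fold change of -0.39 ± 0.25 (edgeR adjusted p = 0.664; -0.27 and 0.615 without that mouse), at 502 to 919 CPM in ApoE-/- and 739 to 1182 CPM in WT.

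Of the S100 proteins that bind annexin tails, 4 of 5 listed were tested. S100a10, the partner of Anxa2, stood at 169 CPM in ApoE-/- replicate 1, 73.0 to 119 CPM in the other ApoE-/- mice and 69.9 to 97.6 CPM in WT, with a log2 fold change of 0.40 ± 0.26 (edgeR adjusted p = 0.693) that was 0.13 without that mouse (adjusted p = 0.807). S100a4 stood at 3.45 CPM in ApoE-/- replicate 1 and 6.997 to 8.59 CPM in the other ApoE-/- mice, against 2.97 to 3.63 CPM in WT. On the log2 scale it was 0.99 ± 0.27 higher in ApoE-/-, with an adjusted p of 0.17 by edgeR, 0.0105 by edgeR without that mouse and 0.0399 by DESeq2 with all libraries.

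In the plasminogen system, which Anxa2 assembles at the cell surface, 5 of 6 genes were tested. Plat, tissue plasminogen activator, stood at 52.0 CPM in ApoE-/- replicate 1 and 90.6 to 101 CPM in the other ApoE-/- mice, against 52.7 to 62.1 CPM in WT. On the log2 scale this was a difference of 0.57 ± 0.20 (edgeR adjusted p = 0.295), and 0.75 (adjusted p = 0.0081) without that mouse. Plaur, the urokinase receptor, had 9.17 CPM there, 12.5 to 18.5 CPM in the other ApoE-/- mice and 8.81 to 9.64 CPM in WT (log2 fold change 0.62, edgeR adjusted p = 0.280; 0.78 and 0.0341 without that mouse).

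Receptors for Anxa1 were too scarce to test. Of the 7 formyl peptide receptor genes, Fpr2 reached 19, 8, 11 and 17 raw counts in the ApoE-/- mice against 2, 5, 3 and 2 in WT, without overlap. Fpr1 overlapped, with 7, 7, 5 and 12 raw counts against 8, 2, 0 and 1, and Fpr3 and 4 related genes were at 0 counts in every library. Among 10 genes of membrane repair and calcium sensing, Trim72, a membrane repair factor of striated muscle, was lower in every ApoE-/- mouse (0.347 to 1.01 CPM against 1.36 to 2.43 CPM). Its log2 fold change was -1.44 ± 0.37, with an adjusted p of 0.139 by edgeR, 0.0444 without ApoE-/- replicate 1 and 0.0265 by DESeq2, and the cardiac muscle markers were lower in the same mice, a link that was not tested. Capn1, a calcium-dependent protease, had a log2 fold change of 0.19 ± 0.16 (edgeR adjusted p = 0.779), which became -6.0e-04 without ApoE-/- replicate 1. A further 13 partner genes tested had log2 fold changes between -0.13 and 0.29, with overlapping genotypes.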

How the data were processed

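RNA of 8 mouse aortas was sequenced by the authors as stranded, ribosomal RNA-depleted total RNA libraries in paired reads, 1 library per mouse. The deposited values are raw counts of read pairs per gene; the submitters' processing notes name TopHat2, HTSeq, GRCm38 and mm10, and versions and settings are not given in the sources used here. Pairs given to no gene, to several genes or to several places stayed out of library sizes. They were 64.4 to 67.7% of each ApoE-/- library and 69.8 to 72.1% of each WT library.

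From these counts, edgeR 4.0.16 (filterByExpr, TMM factors, robust quasi-likelihood F test, genotype alone) was fitted to all genes in R 4.3.3, which left 15077 genes. Benjamini-Hochberg adjustment ran over all of them, with a threshold of 0.05. DESeq2 1.42.0, the tool named by the study, limma-voom 3.58.1, other factors and filters, a replicate block and leaving out each mouse were alternatives; DESeq2 without a low-count filter was chosen after seeing the data. The fits were tested on simulated data. Identifiers of 21817 genes matched GENCODE M21, whose exon lengths gave TPM and shares. Shares and relative levels were compared by exact two-sided permutation over 70 assignments of mice. Coding sequences were aligned with edlib 1.3.9 in Python 3.11.15. Sequences came from RefSeq promoters and GENCODE transcripts.

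Text names all listed annexins, their partner genes, genes within 250 kb of Anxa8, the 5 genes most like Anxa8, and markers; of the partner genes, values are given for those that a test called, Capn1, S100a10 and Vwf, except for 1 result that is not reported here. The members and lists were chosen with earlier results of these data known. Replicates are different mice, and the counts per library are given by genotype above.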

Additional observations from a re-analysis of the deposited data

Results flagged for a closer look

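Among 134 groups of 4 mice examined for a single distant value (annexin levels, shares and relative levels, partner genes and marker sums), 5 were found, where chance gives about 1 in 20, or 6.7. In ApoE-/- replicate 1, the nerve marker sum was highest, 2676 CPM beside 205 CPM in the nearest ApoE-/- mouse, a gap of 0.934 of the group's range. In the same library, Capn1 was highest (72.4 CPM beside 48.9 CPM, gap 0.849), Anxa7 relative to the other 9 annexins was highest (1.57 beside 0.85 on the log2 scale, gap 0.844), and Anxa1 relative to the other 9 was lowest (0.42 beside 1.37, gap 0.85). In WT, Anxa3 of replicate 3 was highest, 169.6 CPM beside 135.6 CPM, a gap of 0.902. The causes were not tested.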

How the results depend on the processing

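The direction of Anxa8, its share and its level relative to its paralogues held under every alternative run; the call by edgeR did not, as given in the report. DESeq2 called 725 genes (470 higher, 255 lower), 3 annexins and 4 partner genes; without a filter on low counts it called 721 (477 and 244), 2 annexins and 4 partner genes. Limma-voom called 29 genes (21 higher, 8 lower) and 0 annexins, with 3 annexins at an unadjusted p below 0.05. The edgeR count of 70 (56 higher, 14 lower) was 63 to 74 with other factors, without a filter or without robust estimation, and it was 50 (41 higher, 9 lower) when at least 10 counts were asked of every library. The cause was not tested.

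With the replicate number as a replicate block, edgeR called 2 genes (1 higher, 1 lower) and 0 annexins, with 2 at an unadjusted p below 0.05; the adjusted p of Anxa8 was 0.14. In the exact sign-flip test over the same pairing, the Anxa8 share difference of 2.34 percentage points and the relative difference of 2.56 each had p = 0.125, the smallest it can give with 4 pairs. Same-numbered mice correlated at 0.05, -0.46, 0.41 and 0.20 in their deviations from group means, and differently numbered mice at -0.69 to 0.71. With 4 mice per genotype these values cannot show whether the numbers pair mice. Under the block the log2 fold change of Anxa8 was 2.87, beside 3.00 without it.

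Leaving out 1 mouse at a time, with edgeR or DESeq2, gave 0 to 1562 genes (0 to 871 higher, 0 to 691 lower), 0 to 4 annexins and 0 to 8 partner genes, the upper ends by DESeq2 without ApoE-/- replicate 1. By edgeR alone, 593 genes passed without that mouse and 0 to 17 without any other. The Anxa8 share difference ranged from 1.74 to 2.71 percentage points, with exact p = 0.0571 without each WT mouse, and the relative difference from 2.32 to 2.72.

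Values near 0 changed sign. With upper-quartile factors the log2 fold change of Anxa6 was -0.0095, and with 1 mouse left out it ranged from -0.039 to 0.10, that of Anxa11 from -0.28 to 0.13 and that of Capn1 from -0.0057 to 0.26. Share differences ranged, with 1 mouse left out, from -1.34 to 2.30 percentage points for Anxa1, -0.77 to 1.25 for Anxa3, -2.31 to 0.69 for Anxa5 and -0.32 to 0.27 for Anxa7. With Anxa8 left out of the sum they were 0.29 for Anxa1 and 0.17 for Anxa3, and by coding length -0.053 for Anxa7. Relative differences ranged, with 1 mouse left out, from -0.21 to 0.11 for Anxa2 and -0.12 to 0.15 for Anxa4. They were -0.014 for Anxa2 with a pseudocount of 0.1 and 0.035 for Anxa4 with one of 2. Against the median of the others they were 0.084 for Anxa1, 0.17 for Anxa3, 0.35 for Anxa4, 0.11 for Anxa5, 0.086 for Anxa7 and 0.026 for Anxa9. None but that of Anxa4 passed its test in these settings.

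Counts were few for Anxa8 in WT, with 52 to 102 per library, and for Anxa9, with 72 to 100, and the formyl peptide receptors were too scarce to test.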
